A study of Mus musculus with 20 samples.

Results

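The 10 genes described here encode transcription factors that are linked to T cell receptor signalling and to T cell exhaustion: the nuclear receptors Nr4a1, Nr4a2 and Nr4a3, the HMG-box factors Tox and Tox2, the AP-1 factors Batf and Batf3, the interferon regulatory factors Irf4 and Irf8, and the Ikaros-family factor Ikzf2. They are a named list, with no cut on a measured value but drawn up with earlier results of these data known, and all 10 were found among the 46603 gene identifiers of the count table. RNA of cultured mouse cells was sequenced in 20 libraries that form 10 groups of 2. The melanoma set of 8 libraries used B16F10, an established cell line kept in puromycin: Ccdc101 KO with thapsigargin (TG), control with TG, Ccdc101 KO with the vehicle dimethyl sulfoxide, and control with vehicle. TG blocks the SERCA pumps that fill the endoplasmic reticulum with calcium, and was given at 50 ng/mL for 8 hours. The remaining 12 libraries used CD8 T cells of OT-I/Cas9 mice, which carry a transgenic T cell receptor for an ovalbumin peptide and the Cas9 nuclease: control activated with TG, Atp2a2 KO activated with vehicle, Atp2a2 KO labelled resting with vehicle, control resting with TG, control activated with vehicle, and control resting with vehicle. Activation was on plate-bound anti-CD3 (2.5 µg/mL) for 24 hours, and all T cells, resting ones included, were grown in IL-2 (10 ng/mL), IL-7 (0.5 ng/mL), IL-15 (1 ng/mL) and puromycin. The labels do not say whether the 2 libraries of a group were separate cultures, how TG and activation overlapped in time, whether a KO line is a clone, or how animals were pooled, so p values measure only the spread between libraries, which may be technical.

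Antigen receptor signals raise cytosolic calcium, which activates calcineurin and moves NFAT into the nucleus. NFAT with AP-1 drives activation genes, while NFAT without enough AP-1 is known to induce NR4A and TOX factors, which favour inhibitory receptors and restrain effector function in exhausted CD8 T cells. BATF forms dimers with JUN proteins that bind DNA together with IRF4 or IRF8, and IRF4 level follows the strength of the receptor signal. NR4A receptors are immediate early genes in many cell types and are also induced through cAMP and CREB, a well-known route in melanocytes.

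Depth was 9985311 to 17462770 counts per library, and the common biological coefficient of variation was 2.71% in melanoma and 2.8% in T cells. Summed T cell markers lay between 2760 and 6680 CPM (counts scaled to library size) in T cell libraries, and melanoma markers between 10400 and 16600 CPM in B16F10 libraries, while each was below 8 CPM in the other cells. Among T cells, melanoma markers summed to 5.21 to 7.97 CPM in control libraries and 0.312 to 1.34 CPM in Atp2a2 KO libraries. The cause of this split was not tested. Summed NK and erythroid markers were at most 0.69 CPM in T cell libraries, and Cd4 and Foxp3 together at most 1.54 CPM. The mRNA of the targeted gene Ccdc101, now named Sgf29, averaged 19.2 ± 0.605 CPM in Ccdc101 KO cells with vehicle, against 28.9 ± 0.991 CPM in control B16F10 (SD, n = 2 each), and Atp2a2 averaged 435.1 ± 1.25 CPM in activated Atp2a2 KO cells, against 676 ± 16.4 CPM in activated control cells. The chaperone gene Hspa5, a marker of endoplasmic reticulum stress, rose with TG in all 4 comparisons, by 3.34 on the log2 scale in control B16F10 and by 1.51 in resting T cells. The libraries labelled resting Atp2a2 KO went against their label: Atp2a2 was at 454 ± 2.18 CPM there, above resting control cells at 225 ± 0.382 CPM. Their group mean had a Spearman correlation across genes of 0.998 with activated Atp2a2 KO, 0.992 with activated control and 0.928 with resting control cells, and only 63 genes were higher and 16 lower in activated than in labelled resting Atp2a2 KO cells (0.469% and 0.119% of 13432). These libraries are not compared as resting cells below except where named. They were kept in the T cell fit and in the fit over all libraries. They therefore bear on the count filter, the scaling and the estimated spread behind the tests on resting cells. They are also a group in the orders and likeness comparisons. A T cell fit without them was run only as an alternative.

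The 3 NR4A genes all rose with TG in resting T cells, and the bases before their start sites are shown, from RefSeq on GRCm38.p6, 5′ to 3′ on the gene's strand. Nr4a1 lies at chr15:101254269-101274795 (plus strand), Nr4a2 at chr2:57106830-57124003 (minus) and Nr4a3 at chr4:48045153-48086447 (plus), as annotated by GENCODE on GRCm38. The windows shown are chr15:101266596-101266845, inside the longer annotated Nr4a1 gene, then chr2:57124004-57124253 and chr4:48045055-48045152, the last cut at 98 bases where an annotated exon begins. Capitals mark TGACG, the core of the cAMP response element that CREB family factors recognise, on either strand (CGTCA as printed).
Nr4a1: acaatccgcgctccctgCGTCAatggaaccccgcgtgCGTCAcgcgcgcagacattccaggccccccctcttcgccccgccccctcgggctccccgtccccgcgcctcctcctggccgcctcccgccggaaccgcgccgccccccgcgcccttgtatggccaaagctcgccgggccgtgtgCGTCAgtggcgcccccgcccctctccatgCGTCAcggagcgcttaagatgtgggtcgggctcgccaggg
Nr4a2: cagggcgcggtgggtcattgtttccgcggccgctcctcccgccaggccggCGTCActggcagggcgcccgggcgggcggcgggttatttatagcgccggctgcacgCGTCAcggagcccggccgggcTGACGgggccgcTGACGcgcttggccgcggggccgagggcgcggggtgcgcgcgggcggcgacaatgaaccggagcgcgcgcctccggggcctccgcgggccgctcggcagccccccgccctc
Nr4a3: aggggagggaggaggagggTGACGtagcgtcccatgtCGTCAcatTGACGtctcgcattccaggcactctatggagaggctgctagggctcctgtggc
Each of these 250-base windows held 4 copies of TGACG, at 233, 213, 69 and 40 bases before the RefSeq start in Nr4a1, at 200, 144, 123 and 111 bases in Nr4a2, and at 231, 213, 205 and 147 bases in Nr4a3, where the last falls in the annotated exon and is not printed. Of 32851 RefSeq mouse promoter windows of that length, 17.8% held at least 1 copy and 0.14%, or 45 windows, held at least 4. The whole element TGACGTCA was in 1.5% of windows and in none of the 3. The other searched motifs, also on both strands and free to overlap, were the NFAT core GGAAA (55.6% of windows), the AP-1 site TGANTCA (6.7%), CCAAT (33.8%) and TATAAA (12.4%): the NFAT core was found in Nr4a2 only among the NR4A windows, once, TATAAA in Nr4a2 once, and the AP-1 site in none. Irf4, which also rose with TG in resting T cells, had no TGACG and no NFAT core in its window, and 1 TATAAA. Irf8 and Batf3 rose there too, and their windows held no TGACG. The Irf8 windows held 1 and 2 NFAT cores. The Batf3 window held 1, but that window begins inside an annotated exon of the gene. Batf, which fell in that comparison, had 1 TGACG and 2 NFAT cores, and 1 of the Tox2 windows had 1 TGACG. 8 of the 10 genes matched an entry. A match describes these letters and shows no binding.

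**Figure D1:**
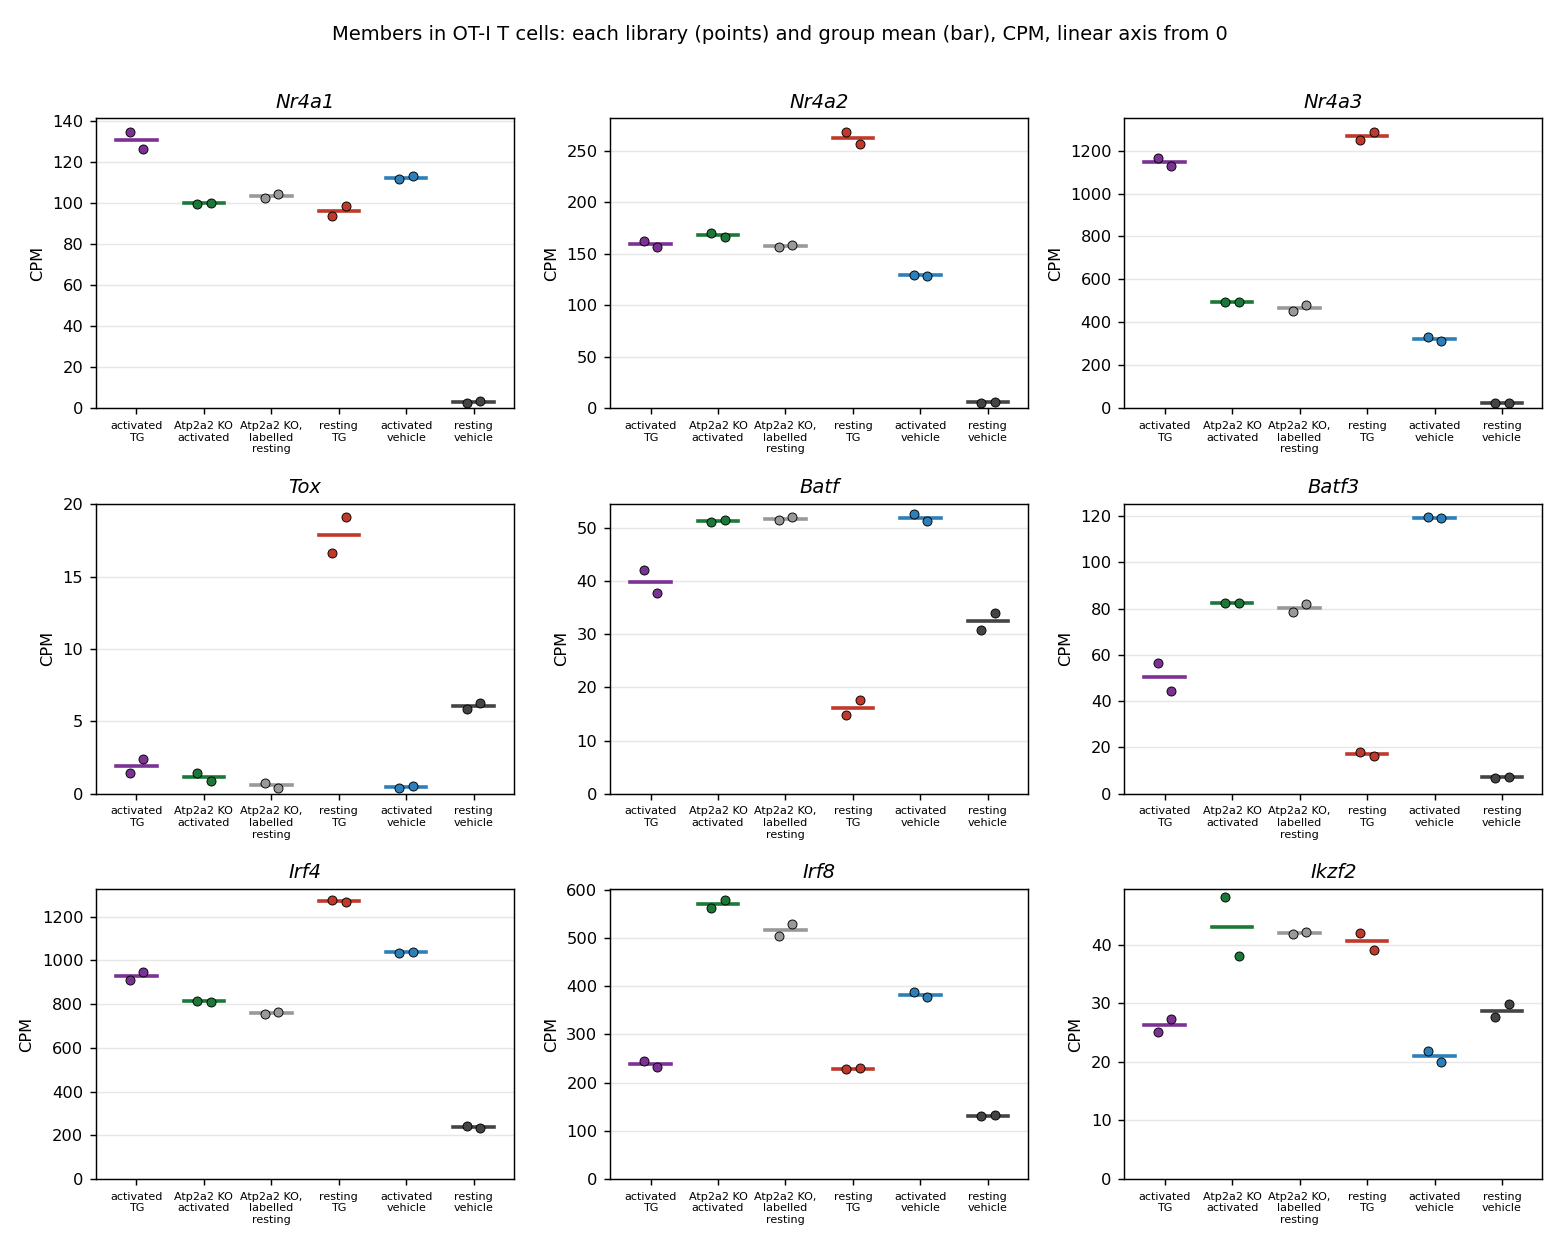
Levels of 9 of the 10 genes in the 6 T cell groups, in CPM on linear axes from 0. Points are the 2 libraries of a group and bars their mean. Resting cells with vehicle are lowest for Nr4a1, Nr4a2, Nr4a3, Batf3, Irf4 and Irf8, and resting cells with TG are highest for Nr4a2, Nr4a3, Irf4 and Tox.

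All 3 NR4A genes were at their lowest T cell level in resting cells with vehicle and many fold higher in each of the other T cell groups. Nr4a1, whose product is the orphan receptor NUR77 and a common reporter of receptor signalling, had 134.7 and 126.6 CPM in activated cells with TG, 99.7 and 100.2 in activated Atp2a2 KO cells, 102.4 and 104.3 in labelled resting Atp2a2 KO cells, 93.8 and 98.7 in resting cells with TG, and 111.8 and 113.1 in activated cells with vehicle, against 2.73 and 3.79 CPM in resting cells with vehicle. Its 5 raised groups thus lay in a narrow band. Nr4a2, which encodes NURR1, had 161.9 and 156.8 CPM in activated cells with TG, 170.2 and 166.4 in activated Atp2a2 KO cells, 156.8 and 158.9 in labelled resting Atp2a2 KO cells, 268 and 257 in resting cells with TG, and 129.5 and 128.6 in activated cells with vehicle, against 5.55 and 6.56 CPM in resting cells with vehicle. Nr4a3, which encodes NOR1, had 1164 and 1128 CPM in activated cells with TG, 497 and 494 in activated Atp2a2 KO cells, 452 and 483 in labelled resting Atp2a2 KO cells, 1249 and 1286 in resting cells with TG, and 331 and 312 in activated cells with vehicle, against 23.48 and 23.46 CPM in resting cells with vehicle. For Nr4a2 and Nr4a3 resting cells with TG were the highest group, and for Nr4a3 both TG groups stood far above every other.

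TG alone, without anti-CD3, was first compared with vehicle in resting T cells. Nr4a3 was 54.0-fold higher with TG (log2 5.75 ± 0.05 SE, edgeR adjusted p = 2.32e-61), Nr4a2 43.6-fold (5.45 ± 0.07, adjusted p = 3.06e-53) and Nr4a1 29.7-fold (4.89 ± 0.10, adjusted p = 4.87e-44). In all, 8 of the 9 genes that passed the count filter were higher and 1 was lower, where 34.1% of the 13432 genes tested were higher and 35.2% lower. Tox2 was the one that failed the filter. No library of one group reached the other in any of the 9. The share of all tested genes without such overlap was not counted, so this does not set the 9 apart.

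The partners of AP-1 and IRF complexes did not move alike in that comparison. Irf4 had 1274 and 1266 CPM in resting cells with TG, against 241 and 234 in resting cells with vehicle (log2 2.42 ± 0.04, edgeR adjusted p = 1.77e-50), and was the most highly expressed of the 10 genes per length there. Irf8, best known in dendritic and B cells and also induced in activated CD8 T cells, had 228 and 230.1 CPM with TG, against 131.0 and 131.8 with vehicle (0.80 ± 0.04, adjusted p = 1.22e-24). Batf3, a dimerisation relative of Batf, had 18.1 and 16.4 CPM with TG, against 6.92 and 7.20 with vehicle (1.29 ± 0.14, adjusted p = 1.19e-10). Batf was the gene that fell, with 14.7 and 17.6 CPM in TG-treated cells, against 30.8 and 34.0 CPM in vehicle-treated cells (-1.01 ± 0.09, adjusted p = 2.2e-14). So Irf4 rose and its DNA-binding partner Batf fell in the same libraries. The 5 dendritic cell markers summed to 9.07 and 7.22 CPM with TG, against 0.599 and 0.394 CPM with vehicle, nearly all of it Zbtb46, and 1 of 5 with TG and 0 of 5 with vehicle exceeded 1 CPM. Of the others, Clec9a and Siglech had no count. Flt3 had 3 counts with TG and 1 with vehicle, and Xcr1 had 0 counts with TG and 2 with vehicle. The 5 B cell markers, of which 3 had no count in either group, summed to 1.38 and 1.67 CPM with TG, against 5.48 and 4.34 with vehicle. The part of either list in the Irf8 and Batf3 results was not tested.

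Tox, a driver of the exhausted state, was lower in activated than in resting cells, with vehicle and with TG. It had 16.6 and 19.1 CPM in resting cells with TG, against 5.87 and 6.28 CPM in resting cells with vehicle (log2 1.55 ± 0.15, edgeR adjusted p = 4.61e-14). In activated cells it had 17 and 31 counts with TG and 7 and 7 counts with vehicle, or 1.45 and 2.37 CPM against 0.408 and 0.53 CPM. All 4 activated control libraries were therefore below every resting library. Tox2, its relative, had 16 counts in all 20 libraries and was not tested; its highest group was activated control cells with vehicle, with 1 and 5 counts. Ikzf2, which encodes Helios, had 42.0 and 39.2 CPM in resting cells with TG, against 27.6 and 29.8 CPM with vehicle (0.50 ± 0.09, adjusted p = 3.95e-06). 260 exon bases of Tox and 144 of Ikzf2 overlap antisense genes that had 1 and 3 counts in all.

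The same drug comparison in activated T cells gave another pattern, with 5 of 9 genes higher and 4 lower where 32.6% of tested genes were higher and 32.4% lower. Nr4a3 was 3.56-fold higher with TG (log2 1.83 ± 0.04, edgeR adjusted p = 7.61e-44) and Tox 4.13-fold (2.05 ± 0.40, adjusted p = 1.29e-05). Nr4a1 and Nr4a2 were higher by little, 0.22 ± 0.05 and 0.30 ± 0.04 on the log2 scale (adjusted p = 4.18e-05 and 8.36e-09). Ikzf2, at 25.1 and 27.4 CPM with TG against 21.9 and 19.99 with vehicle, was higher by 0.32 ± 0.10 (adjusted p = 0.00405, and 0.0677 without the second library of activated cells with TG). The IRF and BATF genes were all on the other side. Batf3 had 56.7 and 44.6 CPM in activated cells with TG, against 119.7 and 119.0 CPM with vehicle (-1.24 ± 0.06, adjusted p = 7.33e-21). Irf8 had 245 and 232 CPM with TG, against 388 and 377 with vehicle (-0.68 ± 0.04, adjusted p = 3.35e-23). Batf fell by 0.38 and Irf4 by 0.16 on the log2 scale (adjusted p = 1.43e-06 and 1.87e-05). The dendritic cell markers summed to 21.1 and 25.6 CPM with TG, against 19.2 and 16.9 CPM with vehicle. Most of this was Zbtb46, which averaged 23.2 CPM with TG and 16.9 with vehicle. Flt3 had 1 count with TG and 33 with vehicle, Xcr1 had 2 and 1, and Clec9a and Siglech had no count in either group. The part of these markers in the results was not tested.

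**Figure D2:**
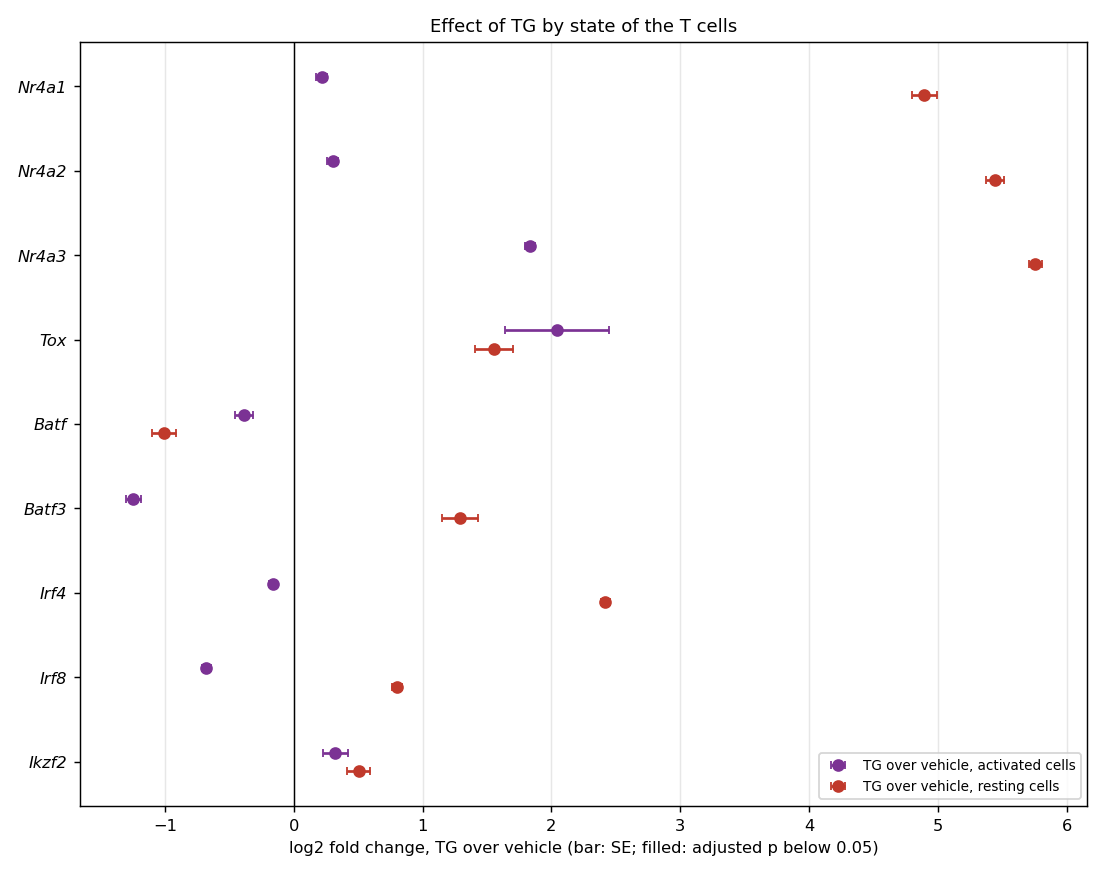
The log2 fold change of TG over vehicle for 9 genes, in activated and in resting T cells. Bars are standard errors and filled points passed an adjusted p of 0.05, as all 18 did. The NR4A genes lie far to the right in resting cells, and Batf3, Irf4 and Irf8 stand on opposite sides of 0 in the 2 states.

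Whether the TG effect differed between activated and resting cells was tested as a difference of log2 changes. The difference was negative for 6 of 9 genes and positive for 1, where 26.7% of tested genes had a positive and 25.2% a negative one. Nr4a2 (-5.14 ± 0.09, edgeR adjusted p = 3.88e-46), Nr4a1 (-4.68 ± 0.12, adjusted p = 1.61e-38) and Nr4a3 (-3.92 ± 0.06, adjusted p = 1.89e-47) differed most. Irf4 (-2.58 ± 0.05), Batf3 (-2.54 ± 0.15) and Irf8 (-1.48 ± 0.06) rose with TG in resting cells and fell with it in activated cells. Batf fell in both, by less in activated cells (0.62 ± 0.12, adjusted p = 7.96e-06). The difference was not called for Tox (0.49 ± 0.44, adjusted p = 0.368) or Ikzf2 (-0.18 ± 0.13, adjusted p = 0.256), the 2 genes that TG raised in both states and that activation with vehicle lowered.

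Activation with anti-CD3 in vehicle, compared with the same resting control libraries as TG alone, had 7 genes higher and 2 lower, where 35.3% of tested genes were higher and 39.1% lower. Nr4a1 was 34.8-fold higher in activated cells (log2 5.12 ± 0.09), Nr4a2 21.4-fold (4.42 ± 0.08), Batf3 16.9-fold (4.08 ± 0.09) and Nr4a3 13.7-fold (3.78 ± 0.05), each with an edgeR adjusted p of at most 1.12e-32. Irf4 was 4.37-fold higher, Irf8 2.91-fold and Batf 1.61-fold. Tox was 12.9-fold lower in activated cells (-3.69 ± 0.31, adjusted p = 4.01e-16) and Ikzf2 was lower by 0.45 ± 0.10 on the log2 scale (adjusted p = 8.96e-05). In bulk libraries, fewer cells that express a gene and less RNA of it per cell cannot be told apart.

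TG alone and activation alone were then set against each other directly. 5 of 9 genes were higher with TG alone and 4 were lower, where 38.4% of tested genes were higher and 36.6% lower. Nr4a1 reached nearly the same level by both routes, 96.3 ± 3.49 CPM with TG alone and 112.4 ± 0.956 CPM with activation alone (log2 -0.22 ± 0.05, edgeR adjusted p = 3.32e-05). Nr4a3 was 3.94-fold and Nr4a2 2.03-fold higher with TG alone, and Tox 37.8-fold higher (5.24 ± 0.23, adjusted p = 1.29e-27). Irf4 was 1.22-fold and Ikzf2 1.93-fold higher. Batf3 was 6.90-fold lower with TG alone (-2.79 ± 0.08, adjusted p = 5.2e-30), Batf 3.23-fold lower (-1.69 ± 0.08) and Irf8 1.67-fold lower (-0.74 ± 0.04). Nr4a2, Nr4a3 and Tox were thus on the TG side, and both BATF genes on the anti-CD3 side.

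Activation was also compared between cells that both had TG. 3 of 9 genes were higher and 5 lower in activated cells, where 32.0% of tested genes were higher and 31.9% lower. Batf3 (log2 1.54 ± 0.09), Batf (1.31 ± 0.09) and Nr4a1 (0.44 ± 0.05) were higher. Tox was 9.16-fold lower in activated cells with TG than in resting cells with TG (-3.20 ± 0.19, edgeR adjusted p = 3.22e-22), Nr4a2 was lower by 0.72 ± 0.04 on the log2 scale, Ikzf2 by 0.63 ± 0.09, Irf4 by 0.45 ± 0.03 and Nr4a3 by 0.14 ± 0.03. Irf8 did not pass the test (0.06 ± 0.04, adjusted p = 0.166).

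Atp2a2 KO was compared with control in activated T cells with vehicle. Atp2a2 mRNA was still at 435.1 ± 1.25 CPM in these KO cells, against 676 ± 16.4 CPM in control cells, and loss of the pump protein was not measured here. 5 of 9 genes were higher in Atp2a2 KO cells and 3 lower, where 17.5% of tested genes were higher and 19.6% lower. Ikzf2 had 48.1 and 38.1 CPM in activated Atp2a2 KO cells, against 21.9 and 19.99 CPM in activated control cells (log2 1.06 ± 0.09, edgeR adjusted p = 3.65e-13). Nr4a3 was 1.54-fold higher (0.62 ± 0.04, adjusted p = 5.85e-21), Nr4a2 1.30-fold (0.38 ± 0.04, adjusted p = 3.25e-11) and Irf8 1.49-fold, with 562 and 578 CPM in Atp2a2 KO cells and 388 and 377 CPM in control cells (0.58 ± 0.04, adjusted p = 5.03e-20). Tox had 25 and 11 counts in Atp2a2 KO cells and 7 and 7 in control cells (1.40 ± 0.43, adjusted p = 0.00818), a call that was lost without the first Atp2a2 KO library (0.247) or the first control library (0.103). Batf3 (-0.54 ± 0.06), Irf4 (-0.35 ± 0.03) and Nr4a1 (-0.17 ± 0.05, adjusted p = 0.00261) were lower. Batf had 51.1 and 51.4 CPM in Atp2a2 KO cells and 52.6 and 51.2 CPM in control cells, and did not pass the test (-0.02 ± 0.06, adjusted p = 0.835). The dendritic cell markers summed to 19.99 and 21.0 CPM in Atp2a2 KO cells, against 19.2 and 16.9 CPM in control cells, and their part in the Irf8 and Batf3 results was not tested.

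**Figure D3:**
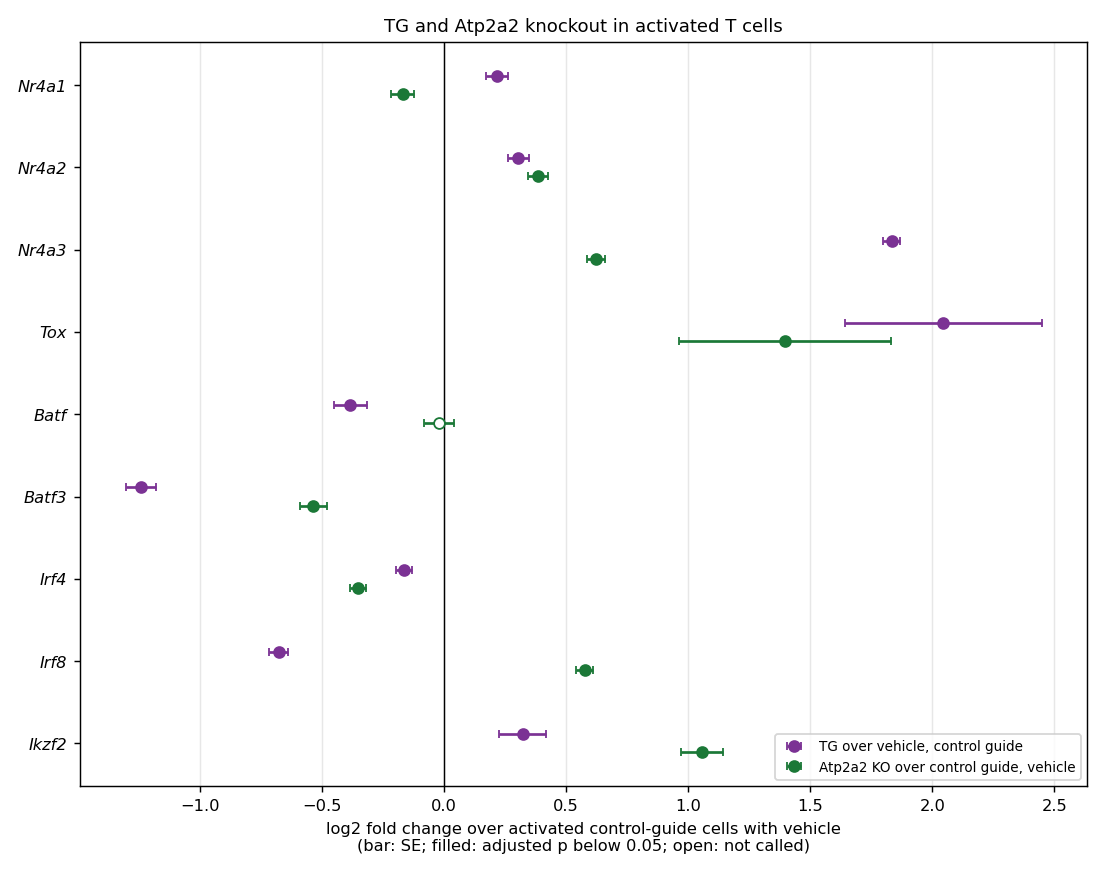
The log2 fold change of 9 genes over activated control T cells with vehicle, for TG in control cells and for Atp2a2 KO with vehicle, which share those control libraries. Bars are standard errors, and the open point (Batf in Atp2a2 KO) was not called. Irf8 and Nr4a1 lie on opposite sides of 0, and Nr4a3 and Tox are to the right for both.

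TG, which blocks the SERCA pumps, and KO of Atp2a2, which encodes a SERCA pump, were compared head to head in activated cells. 3 of 9 genes were higher with TG and 4 lower, where 30.5% of tested genes were higher and 30.0% lower. Irf8 differed most among the called genes: 245 and 232 CPM with TG, against 562 and 578 CPM in Atp2a2 KO cells (log2 -1.25 ± 0.04, edgeR adjusted p = 1.76e-35). Nr4a3 was 2.31-fold higher with TG (1.21 ± 0.04, adjusted p = 1.39e-35), and Nr4a1 (0.39 ± 0.05) and Irf4 (0.19 ± 0.03) were higher too. Ikzf2 (-0.73 ± 0.09), Batf3 (-0.71 ± 0.06) and Batf (-0.36 ± 0.07) were lower with TG. Nr4a2 (-0.08 ± 0.04, adjusted p = 0.0885) and Tox (0.65 ± 0.32, adjusted p = 0.0798) did not pass the test, which does not show that they were equal. TG was present for 8 hours, while the time since Atp2a2 KO is not given in the sources used here. The exposures can therefore not be called matched. The targets were not matched either, since the KO was aimed at Atp2a2 alone.

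The libraries labelled resting Atp2a2 KO had, over resting control cells, 8 of 9 genes higher and 1 lower, where 33.7% of tested genes were higher and 35.9% lower. Nr4a1 was 32.0-fold higher, Nr4a2 26.2-fold, Nr4a3 19.9-fold and Batf3 11.4-fold, and Tox was 10.1-fold lower. These levels were close to those of the activated Atp2a2 KO libraries: of the 9 genes only Irf8 was called between them, at 562 and 578 CPM in activated against 504 and 528 CPM in labelled resting Atp2a2 KO cells (log2 0.14 ± 0.04, edgeR adjusted p = 0.0406). Atp2a2 KO and activation state cannot be told apart in the labelled resting libraries.

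Genes known to respond to NFAT mostly rose with TG in resting T cells, as the NR4A genes did, but were split in the other pump comparisons. With TG in resting cells, 12 of 13 rose and 0 fell, where 34.1% of all tested genes rose and 35.2% fell, with a median log2 change of 5.10 against 0.01 over all tested genes. The chemokine gene Xcl1 averaged 689 ± 16.2 CPM with TG and 2.37 ± 0.961 with vehicle, the cytokine gene Ifng 1491 ± 14.3 and 9.40 ± 0.554, and Egr2, a zinc-finger factor of anergic T cells, 109.99 ± 1.95 and 1.93 ± 0.007. With TG in activated cells 7 rose and 5 fell (32.6% and 32.4% of all tested genes). The difference between states was negative for 13 of 13 (median -4.78), beside 25.2% of all tested genes negative and 26.7% positive. With activation in vehicle 11 rose and 1 fell (35.3% and 39.1% of all tested genes). With Atp2a2 KO 4 rose and 7 fell (17.5% and 19.6% of all tested genes), with Il2 at 6.97 ± 0.136 CPM in Atp2a2 KO cells and 15.98 ± 0.325 in control cells. Of 9 calcineurin and NFAT genes themselves, 4 rose and 5 fell with TG in resting cells, and 3 rose and 5 fell with TG in activated cells, beside the same shares of all genes.

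AP-1 and CNC factors, which include the JUN partners of BATF, were split. With TG in resting cells 6 of 13 rose and 3 fell (median log2 0.46), where 34.1% of all tested genes rose and 35.2% fell. Bach2, a repressor that competes at AP-1 sites, averaged 195.7 ± 11.6 CPM with TG and 69.7 ± 6.75 with vehicle, while Jund averaged 119.5 ± 0.599 and 312 ± 83.8 CPM. With TG in activated cells 7 rose and 6 fell, where 32.6% of all tested genes rose and 32.4% fell: Bach2 averaged 108.6 ± 3.69 CPM with TG and 42.6 ± 3.34 with vehicle, and Junb 251 ± 56.7 and 595 ± 50.4 CPM. With Atp2a2 KO 3 rose and 2 fell, where 17.5% of all tested genes rose and 19.6% fell, Bach2 among those that rose (57.4 ± 0.573 CPM in Atp2a2 KO cells and 42.6 ± 3.34 in control cells). With activation in vehicle 9 rose and 3 fell (35.3% and 39.1% of all tested genes).

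Inhibitory receptor genes, which NR4A and TOX factors are known to favour, rose in 8 of 13 and fell in 5 with TG in resting cells, where 34.1% of all tested genes rose and 35.2% fell. Lag3 averaged 1035 ± 20.1 CPM with TG and 137.5 ± 2.25 with vehicle, Pdcd1, which encodes PD-1, 159.4 ± 5.52 and 23.7 ± 0.856, and Cd244a 7.57 ± 0.244 and 57.7 ± 1.62. With TG in activated cells 9 rose and 2 fell (32.6% and 32.4% of all tested genes), Lag3 averaging 1117 ± 41.7 CPM with TG and 384 ± 7.35 with vehicle. With Atp2a2 KO 10 rose and 2 fell, where 17.5% of all tested genes rose and 19.6% fell. Pdcd1 averaged 120.7 ± 5.65 CPM in activated Atp2a2 KO cells and 40.7 ± 0.067 in activated control cells, and Havcr2, which encodes TIM-3, 341 ± 0.378 and 193.6 ± 0.785. Activation in vehicle had 7 higher and 6 lower (35.3% and 39.1% of all tested genes).

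Memory and quiescence genes more often fell than rose in these comparisons, activation with vehicle included. With TG in resting cells 11 of 14 fell and 3 rose (median log2 -1.14), where 35.2% of all tested genes fell and 34.1% rose. With TG in activated cells 9 fell and 3 rose (-0.75), where 32.4% fell and 32.6% rose, and with Atp2a2 KO 8 fell and 2 rose (-0.20), where 19.6% fell and 17.5% rose. With activation in vehicle 10 fell and 4 rose (-0.47), where 39.1% fell and 35.3% rose. Tcf7, a factor of memory and stem-like T cells, averaged 16.7 ± 2.47 CPM in activated Atp2a2 KO cells and 34.7 ± 0.198 in activated control cells, and S1pr1, an exit receptor, 4.27 ± 0.407 CPM in resting cells with TG and 49.8 ± 2.49 in resting cells with vehicle. Beside the same shares of all genes with TG in resting cells (34.1% rose and 35.2% fell), effector factors rose in 9 of 13 and fell in 3, with Zeb2 at 39.6 ± 0.033 CPM with TG and 2.24 ± 0.097 with vehicle, and Id2 at 74.3 ± 2.30 and 693 ± 14.1 CPM. Family relatives of the 10 genes rose in 6 of 13 and fell in 6: Ikzf3 averaged 430.0 ± 5.79 CPM in resting cells with TG and 69.9 ± 2.03 with vehicle, and Irf1 109.3 ± 0.152 and 239 ± 3.96 CPM.

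In B16F10 cells only 5 of the 10 genes passed the count filter, namely the 3 NR4A genes, Ikzf2 and Batf3. Tox and Tox2 had no count in the 8 libraries, which allows up to 3 counts, or 0.101 to 0.144 CPM per group by counting error. Batf had at most 1 count per library, Irf8 at most 5 and Irf4 at most 14.

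The NR4A genes split in control B16F10 cells with TG. Nr4a1 had 29.8 and 28.5 CPM in control cells with TG, against 67.9 and 66.0 CPM with vehicle (log2 -1.20 ± 0.07, edgeR adjusted p = 1.42e-18). Nr4a2 had 42.5 and 40.7 CPM with TG, against 6.75 and 7.66 with vehicle (2.54 ± 0.10, adjusted p = 6.39e-25). Nr4a3 had 206 and 234 CPM with TG, against 54.2 and 53.6 with vehicle (2.03 ± 0.06, adjusted p = 2.4e-22). So Nr4a1 fell while its 2 relatives rose, in the same libraries. Ikzf2 had 6.60 and 5.99 CPM with TG, against 3.53 and 2.85 with vehicle (0.96 ± 0.19, adjusted p = 2.67e-05), and Batf3, at 12 and 14 counts with TG and 29 and 24 with vehicle, did not pass the test (-0.51 ± 0.35, adjusted p = 0.187). In all, 3 of 5 were higher and 1 lower, where 35.7% of 12540 tested genes were higher and 36.1% lower.

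**Figure D4:**
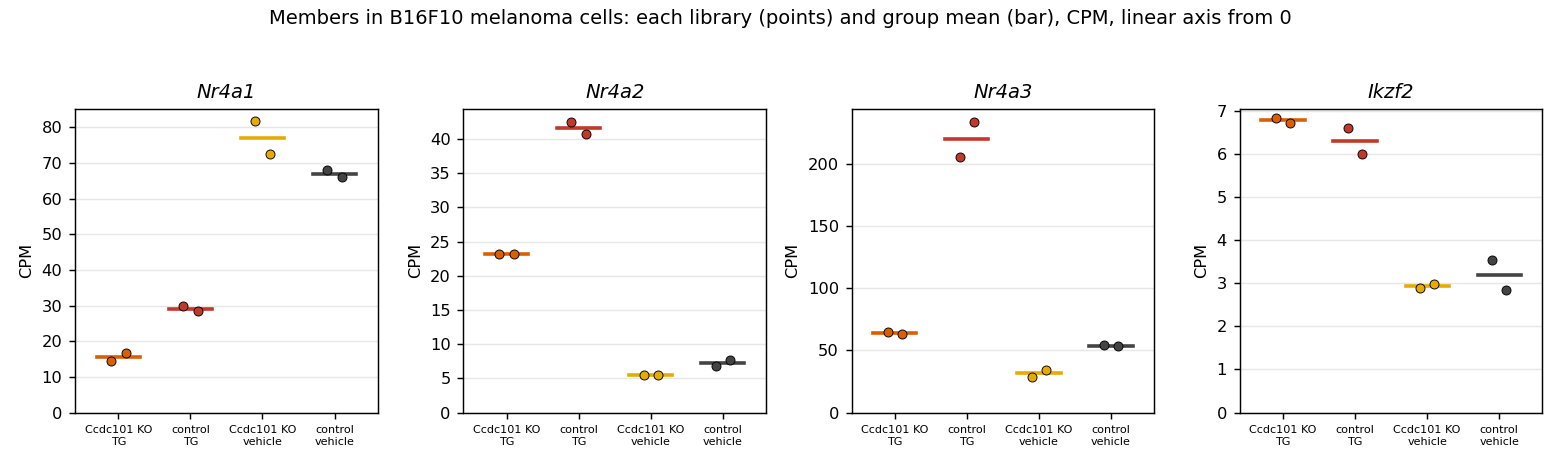
Levels of 4 of the genes in the 4 B16F10 groups, in CPM on linear axes from 0. Points are libraries and bars group means. Nr4a1 is lower and Nr4a2, Nr4a3 and Ikzf2 are higher in the TG groups than in the vehicle groups, and all 3 NR4A genes are lower in Ccdc101 KO than in control cells with TG.

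Ccdc101 KO cells, in which the targeted gene encodes a histone-reading subunit of the SAGA acetyltransferase complex, had the same direction of each called TG effect. Nr4a1 had 14.5 and 16.8 CPM in KO cells with TG, against 81.7 and 72.5 CPM in KO cells with vehicle (log2 -2.30 ± 0.08, edgeR adjusted p = 5.65e-27). Nr4a2 had 23.2 and 23.3 CPM with TG, against 5.55 and 5.52 with vehicle (2.07 ± 0.12, adjusted p = 7.74e-19), and Nr4a3 64.5 and 63.0 CPM with TG, against 29.0 and 33.9 with vehicle (1.02 ± 0.08, adjusted p = 2.1e-12). Ikzf2 rose by 1.21 ± 0.20 and Batf3, at 12 and 13 counts with TG and 43 and 25 with vehicle, was lower by 1.47 ± 0.33 on the log2 scale (adjusted p = 0.000124). These were 3 of 5 genes higher and 2 lower, where 34.1% of tested genes were higher and 36.3% lower.

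Between KO and control cells that both had TG, all 3 NR4A genes were lower in the KO and no gene of the 5 was higher, where 16.6% of tested genes were higher and 15% lower. Nr4a3 was 3.45-fold lower in KO cells with TG (log2 -1.79 ± 0.06, edgeR adjusted p = 2.45e-19), Nr4a1 1.86-fold (-0.89 ± 0.10, adjusted p = 1.46e-09) and Nr4a2 1.79-fold (-0.84 ± 0.08, adjusted p = 9.29e-11). With vehicle, 1 gene was higher and 1 lower in the KO, where 12.4% of tested genes were higher and 13.3% lower. Nr4a3 was lower (-0.78 ± 0.08, adjusted p = 9.39e-09). Nr4a1 was higher by 0.20 ± 0.06 (adjusted p = 0.00704), a call that was lost with DESeq2 (0.236), without the first KO library with vehicle (0.394) and without the second control library with vehicle (0.0839). Nr4a2 (-0.37 ± 0.15, adjusted p = 0.0675), Batf3 and Ikzf2 did not pass the test.

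The TG effect itself was more negative in Ccdc101 KO than in control B16F10 cells for Nr4a1 (difference of log2 changes -1.10 ± 0.11, edgeR adjusted p = 2.12e-09) and Nr4a3 (-1.003 ± 0.10, adjusted p = 3.52e-08). It was not called for Nr4a2 (-0.47 ± 0.18, adjusted p = 0.0742), Batf3 (-0.96 ± 0.50, adjusted p = 0.222) or Ikzf2 (0.24 ± 0.28, adjusted p = 0.654). So 0 of 5 genes had a positive and 2 a negative difference, where 7.16% of tested genes had a positive and 5.95% a negative one. Nr4a1 thus fell further, and Nr4a3 rose less, in the KO.

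CREB-responsive genes are set beside the NR4A genes because of the TGACG copies shown above. With TG in control B16F10 cells 8 of 12 rose and 0 fell (median log2 0.46), where 35.7% of all tested genes rose and 36.1% fell, and in Ccdc101 KO cells 8 rose and 2 fell (0.44), where 34.1% rose and 36.3% fell. Crem, which encodes a CREB relative, averaged 28.7 ± 0.551 CPM in control cells with TG and 10.6 ± 0.153 with vehicle, and Gem, a small GTPase gene, 12.8 ± 0.291 and 1.21 ± 0.438 CPM. Between Ccdc101 KO and control cells with TG 2 were higher and 7 lower (median -0.30), where 16.6% of all tested genes were higher and 15% lower, with Sik1, a kinase that restrains CREB coactivators, at 7.39 ± 1.99 CPM in KO cells and 16.5 ± 1.39 in control cells. In resting T cells with TG 6 of 12 rose and 4 fell, where 34.1% of all tested genes rose and 35.2% fell. In activated T cells with TG 7 rose and 3 fell, where 32.6% rose and 32.4% fell, and Atp2a2 KO had 8 higher and 0 lower, where 17.5% were higher and 19.6% lower. AP-1 and CNC factors rose in 8 of 12 and fell in 1 with TG in control B16F10 cells (35.7% and 36.1% of all tested genes). With TG in Ccdc101 KO cells 4 rose and 2 fell (34.1% and 36.3% of all tested genes). Of that list Fos averaged 4.17 ± 0.823 CPM in control cells with TG and 13.4 ± 2.36 with vehicle, so that it fell beside Nr4a1, while Atf3 averaged 141.5 ± 5.23 and 5.27 ± 0.307 CPM. In the same control cells, where 35.7% of all tested genes rose and 36.1% fell, 5 of 11 family relatives rose and 2 fell, 3 of 9 calcineurin and NFAT genes rose and 2 fell, 4 of 8 memory genes rose and 3 fell, and 5 of 9 effector factors rose and 3 fell. Of 4 NFAT-responsive genes 1 rose and 0 fell, and the single inhibitory receptor gene that passed the filter fell.

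**Figure D5:**
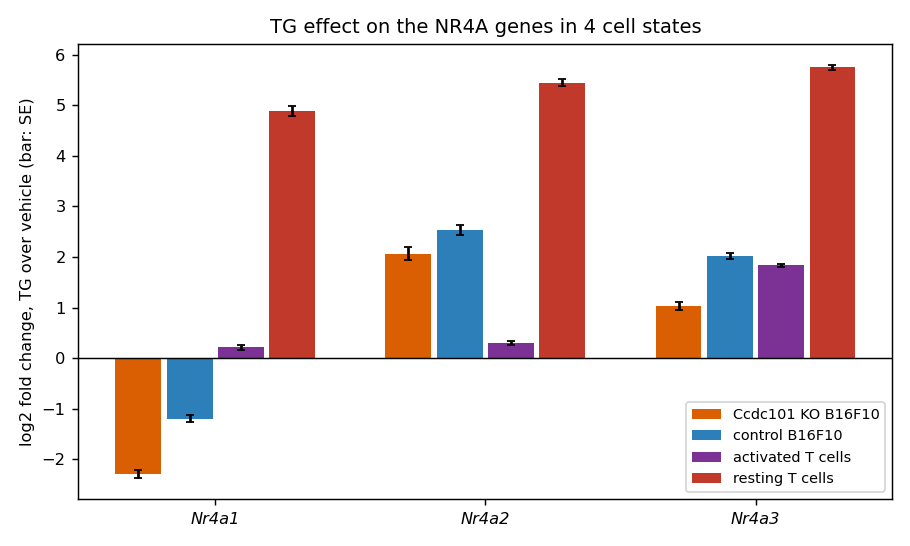
The log2 fold change of TG over vehicle for Nr4a1, Nr4a2 and Nr4a3 in Ccdc101 KO B16F10, control B16F10, activated T cells and resting T cells. Bars run from 0 and error bars are standard errors. Nr4a1 falls in both B16F10 groups and rises in both T cell groups, and Nr4a2 and Nr4a3 rise in all 4.

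The TG effect in control B16F10 cells was set against that in T cells in 1 fit over all 20 libraries. Against resting T cells, 0 of 9 genes had a positive and 5 a negative difference, where 23.6% of 14824 tested genes had a positive and 23.8% a negative one. Nr4a1 differed by -6.11 ± 0.13 (edgeR adjusted p = 7.66e-53), having fallen in melanoma and risen in T cells, Nr4a3 by -3.75 ± 0.08, Nr4a2 by -2.93 ± 0.15 and Batf3 by -1.82 ± 0.37, while Irf4, also called, was below 1 CPM in every B16F10 library. Against activated T cells, 3 genes had a positive and 1 a negative difference, where 21.6% of tested genes had a positive and 21.8% a negative one. Nr4a2 rose more in melanoma (2.21 ± 0.10, adjusted p = 8.68e-31) and Nr4a1 had the opposite sign there (-1.44 ± 0.08, adjusted p = 3.42e-25). Nr4a3 (0.17 ± 0.07, adjusted p = 0.0424) and Ikzf2 (0.61 ± 0.22, adjusted p = 0.0206) were called by a narrow margin. Nr4a3 lost the call with DESeq2 (0.098), with no filter (0.105) and without any of 5 libraries (0.102 to 0.802), and Ikzf2 without any of 4 (0.0519 to 0.138). Tox, Batf and Irf8, near 0 in melanoma, give no interpretable difference.

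Levels were compared between genes as CPM per kilobase of exon, scaled over all 20 libraries. In resting T cells with TG, Irf4 averaged 279 and Nr4a3 228, followed by Nr4a2 at 69.6, Irf8 at 34.9, Nr4a1 at 29.5, Batf at 12.4, Batf3 at 11.6, Ikzf2 at 3.76 and Tox at 2.53 CPM per kilobase. In resting T cells with vehicle the order was Irf4 at 51.7, Batf at 24.6, Irf8 at 19.9, Batf3 at 4.71, Nr4a3 at 4.18, Ikzf2 at 2.64, Nr4a2 at 1.59, Nr4a1 at 0.991 and Tox at 0.851 CPM per kilobase. So Nr4a3 stood next to Irf4 with TG, and below Batf3 with vehicle.

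On the same scale the order of the 10 groups can be given for each gene. Nr4a1 was highest in activated T cells with TG, at 38.8 CPM per kilobase, and lowest in resting T cells with vehicle, below all 4 B16F10 groups, which ran from 20.4 in Ccdc101 KO cells with vehicle to 4.15 in Ccdc101 KO cells with TG. Its neighbours activated Atp2a2 KO cells (29.6) and resting cells with TG (29.5) overlapped between libraries. Nr4a2 overlapped between control B16F10 with vehicle (1.67) and resting T cells with vehicle (1.59), and its 5 highest groups were T cell groups. Nr4a3 also had its 5 highest levels in T cells, with control B16F10 with TG next at 34.4, and no neighbours overlapped. Irf4, Irf8, Batf3 and Batf were higher in every T cell group than in every B16F10 group. Batf overlapped between activated Atp2a2 KO (37.91), activated control with vehicle (37.87) and labelled resting Atp2a2 KO cells (37.6), and Irf8 between activated (35.3) and resting cells with TG (34.9). Ikzf2 overlapped between activated Atp2a2 KO (3.86), resting cells with TG (3.76) and labelled resting Atp2a2 KO cells (3.70), and Tox between activated cells with TG (0.261) and activated Atp2a2 KO cells (0.162).

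The genes whose group means ran most like a member's are given as a description, since all points come from the same libraries. Over the 10 groups and 10884 genes, the profile of Nr4a3 was most like that of Nr4a2 (Pearson r = 0.966), then Eea1 (0.957) and Mex3c (0.948), and that of Nr4a2 most like Tob2 (0.971), Nr4a3 and Ercc1 (0.959). Nr4a1 had no gene above 0.95, the nearest being Gtf2e2 (0.945), Selenoi (0.911) and Rmdn3 (0.903). Over the 6 T cell groups and 9731 genes, Nr4a1 had 188 genes above 0.95, Xcl1 (0.998) and Epn2 (0.997) among them. Nr4a2 was most like Slc5a3, Egr2 and Tfcp2 (0.997, 0.995 and 0.991), with 87. Nr4a3 was most like Dedd, Spry1 and Nsun4 (0.999, 0.996 and 0.995), with 180 genes above 0.95. Ikzf2 had the most separate profile there, with 2 genes above 0.95, Adck5 (0.973) and Haus2 (0.970). With 6 points so high a correlation was common for the other members, from 29 genes for Irf8 (led by Pabpn1, Pim3 and Pex5) to 501 for Batf3 (led by Plaur, St13 and Pum3), with 75 for Irf4, 157 for Batf and 366 for Tox.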

How the data were processed

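Total RNA of 20 mouse libraries was measured by sequencing. The deposited values are read counts per Ensembl gene, made with STAR 2.6.0c and HTSeq (version not given) against GRCm38/mm10, per the submitters' processing notes; strand setting, annotation release and filters are not given in the sources used here. Names came from GENCODE M21: 46091 of 46603 identifiers were named, and the 512 others held 0.0759% of the counts. Library totals ran from 9985311 to 17462770 counts. Reads with several matching places are left out by HTSeq, which lowers genes with close copies.

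The test on these counts was edgeR 4.0.16 in R 4.3.3: TMM scaling, filterByExpr, a robust quasi-likelihood fit with 1 mean per group, and Benjamini-Hochberg adjustment over all genes tested, with calls at adjusted p below 0.05. The 8 melanoma libraries (12540 genes, 4 residual degrees of freedom), the 12 T cell libraries (13432 genes, 6) and all 20 (14824 genes, 10) were fitted separately. CPM carry the same scaling. A standard error is taken from the F statistic, as the log2 change over its root. The code was tested on simulated counts. Alternatives were RLE scaling, DESeq2 1.42.0, no filter, 5 CPM in 2 libraries, a replicate term, a fit of the compared groups alone, leaving out each library, and a T cell fit without the libraries labelled resting Atp2a2 KO.

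The 10 members and the 8 gene lists were chosen with earlier results of these data known. All members that passed the count filter were tested in every comparison, but not every member is named in the text of each. From each list the counts are given with up to 4 called members of largest change with 10 CPM or more on the higher side, and for likeness the 3 genes of highest Pearson correlation over group means, of which 1 is not reported here. Setting activated against labelled resting Atp2a2 KO cells was added after the data had been examined. Same-numbered libraries of different groups did not deviate together: the correlations of deviations had a median of -0.0064 over 6 group pairs in melanoma and -0.0036 over 15 in T cells, where 1 pair passed 0.1, so numbers were not used as pairs. Promoter sequences are RefSeq entries on GRCm38.p6, trimmed where they overlap an exon of GENCODE M21.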

Additional observations from a re-analysis of the deposited data

Results flagged for a closer look

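Each result here is a difference between 2 TG effects that passed edgeR's quasi-likelihood test of the difference itself, given as a difference of log2 changes. Between Ccdc101 KO and control B16F10 cells the TG effect differed for Nr4a1 (-1.10) and Nr4a3 (-1.003). Between activated and resting T cells it differed for Nr4a2 (-5.14), Nr4a1 (-4.68), Nr4a3 (-3.92), Irf4 (-2.58), Batf3 (-2.54), Irf8 (-1.48) and Batf (0.62). Between control B16F10 cells and resting T cells it differed for Nr4a1 (-6.11), Nr4a3 (-3.75), Nr4a2 (-2.93) and Batf3 (-1.82), and between control B16F10 cells and activated T cells for Nr4a2 (2.21), Nr4a1 (-1.44), Ikzf2 (0.61) and Nr4a3 (0.17). The difference for Irf4 between melanoma and resting T cells is left out because its level was below 1 CPM in every B16F10 library.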

How the results depend on the processing

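Of 100 called results of the 10 genes in the 16 comparisons, 95 kept their direction and their call under every alternative run and 0 reversed; the 5 that lost the call under at least 1 alternative are named in the report. Of the results that were not called, 6 were called and 5 changed sign under at least 1 alternative. Batf between Atp2a2 KO and control activated T cells had a log2 change of 0.0026 under the filter of 5 CPM, and Batf between melanoma and resting T cells one of 0.051 with DESeq2. With each library left out, these log2 values ran from -0.28 to 0.019 for Ikzf2 in Ccdc101 KO with vehicle, from -1.77 to 1.00 for Batf between melanoma and resting T cells, and between melanoma and activated T cells from -2.40 to 0.36 for Batf and from -3.69 to 0.97 for Irf8. All 4 have few counts.

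The number of the 10 genes called between Ccdc101 KO and control with vehicle was 1 with DESeq2, against 2, and 1 to 3 with each library left out. Between melanoma and activated T cells it was 2 to 4 with each library left out, against 4. Over all genes DESeq2 called fewer: 561 higher and 947 lower for Ccdc101 KO with vehicle, against 1550 and 1668, 1046 and 1080 for Ccdc101 KO with TG, against 2078 and 1878, 447 positive and 224 negative for the difference of TG effects in melanoma, against 898 and 746, and 1477 and 1679 for Atp2a2 KO in activated T cells. With no filter that difference had 1383 positive calls. With each library left out, 961 to 1024 genes were higher for Ccdc101 KO with vehicle, 1224 to 1609 lower for Ccdc101 KO with TG, and 449 to 692 negative for the difference of TG effects in melanoma. The cause was not tested.

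A term for the replicate number (replicate block) left the number of members called as it was in all 16 comparisons, for example 9 with TG in resting T cells and 4 with TG in control B16F10. With 2 libraries per group, the changes of Tox, Batf3 and Ikzf2 in groups with few counts are the least precise.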
